A study of Homo sapiens with 12 samples.

Results

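The 6 genes described here supply ubiquitin, activate it or carry ubiquitin-tagged proteins to the proteasome: UBB, RPS27A, UBA1, UBQLN1, UBQLN2 and RAD23B. They were taken by symbol from the deposited table of array signals, where they have 10 probes among 47227, and 6 of 31303 gene symbols. All 10 probes were detected on all 12 arrays. Of the 6 genes UBQLN1 had the widest span of group means, with 2.02-fold the control signal at 25 nM ixazomib, 2.35-fold at 71.25 nM and 2.12-fold in resistant cells. Its paralog UBQLN2 was not called at either dose, and RAD23B was lower in resistant cells than in control cells.

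The cells were L428, an established Hodgkin lymphoma line. Ixazomib is an oral drug that blocks the catalytic core of the proteasome. The 12 samples of total RNA formed 4 groups of 3: ixazomib-resistant L428 cells, control L428 cells, and L428 cells given 25 nM or 71.25 nM ixazomib for 24 h. For the resistant cells the labels name neither a dose nor whether drug was present at harvest, nor whether they are 1 clone. One sample titled 71.25 nM is described as 25 nM elsewhere in its labels and was grouped by that title. The series text speaks of biological triplicates after naming only the 25 nM treatment. For the other groups p-values measure only the spread between samples, and that spread may be technical.

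Ubiquitin is made as a precursor that is cut into single units. UBB encodes a head-to-tail chain of ubiquitin units, while RPS27A encodes ubiquitin fused to a ribosomal protein. The E1 enzyme UBA1 activates ubiquitin with ATP and passes it to conjugating enzymes. Shuttle factors such as UBQLN1, UBQLN2 and RAD23B bind ubiquitin chains through one domain and the proteasome through a ubiquitin-like domain, and so deliver substrates for degradation. In cells whose proteasome is inhibited, transcription of proteasome subunit genes is known to rise through NFE2L1, and heat shock genes through HSF1.

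Mean signals per array ran from 293.2 to 326.7 in resistant cells and from 343.5 to 400.5 in control cells, with 316.4 to 384 at 25 nM and 342.3 to 353.8 at 71.25 nM. Between 17100 and 18785 probes were detected per array, and the number of arrays limits the precision. Log2 signals of arrays correlated at 0.9898 to 0.9939 within groups and 0.9502 to 0.9896 between groups. Of 9 Hodgkin cell markers 8 were detected on all 12 arrays and CCL22 on 8, while 0 of 5 T cell and 0 of 5 stromal or epithelial markers were detected on all 12. Of 5 myeloid markers LYZ and CSF1R were detected on all 12 arrays, CD14 on 11, and CD33 and MPO on 0; 2 of the 3 measured were called higher in resistant cells than in control cells. The mean signal of the myeloid markers was 106.5 to 114.2 in resistant cells and 103.9 to 107.6 in control cells, with 107.2 to 114.3 at 25 nM and 109.1 to 113.9 at 71.25 nM. The mean signal of the Hodgkin markers was 1848 to 1915 in resistant cells and 2477 to 3117 in control cells, with 2249 to 2641 at 25 nM and 1500 to 1759 at 71.25 nM. Both are means of deposited signals over probes, the Hodgkin one weighted to FSCN1 (16450 over all arrays) and CCL17 (10910). Of the 9 Hodgkin markers 3 were called higher and 5 lower in resistant cells than in control cells. In that comparison 23.0% of all genes were called higher and 24.1% lower. The part of the marker lists in the results below was not tested. In bulk RNA, fewer cells expressing a gene and less of its RNA per cell cannot be told apart.

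Values below are normalized log2 signals of a gene's brightest probe, called its level, and differences are on the log2 scale with their standard error (SE). A gene was called when its adjusted p in limma's model over all 20414 probes kept was under 0.05. At 25 nM 3 of the 6 genes were called against control, all higher, where 27.0% of all genes were called and 13.3% were called higher. At 71.25 nM 1 of the 6 was called, higher, against 39.0% of all genes and 19.4% called higher. In resistant cells against control 3 were called higher and 1 lower, against 47.1% of all genes, with 23.0% higher and 24.1% lower. None of the 6 was called by limma between 71.25 nM and 25 nM, where 5.86% of all genes were called, and 2 of the 6 had an unadjusted p under 0.05. None was called in resistant cells against 71.25 nM, where 21.5% of all genes were called, and 1 had an unadjusted p under 0.05. In resistant cells against 25 nM 1 was called, higher, against 29.6% of all genes and 15.4% called higher. Across the 4 groups together 4 of the 6 differed, where 52.7% of all genes did. One of the 3 calls at 25 nM, that of UBB, rests on 1 of its 2 probes, and so does that of RPS27A in resistant cells. With only 6 genes the counts are not read as a property of the set, and the results below concern single genes. The arrays of 3 of the 6 genes did not overlap between 25 nM and control, against 42.0% of all genes. The count was 4 at 71.25 nM, against 48.1%, and 5 in resistant cells, against 53.8%. The 3 comparisons against control share the same control samples, so their values are given side by side.

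**Figure D1:**
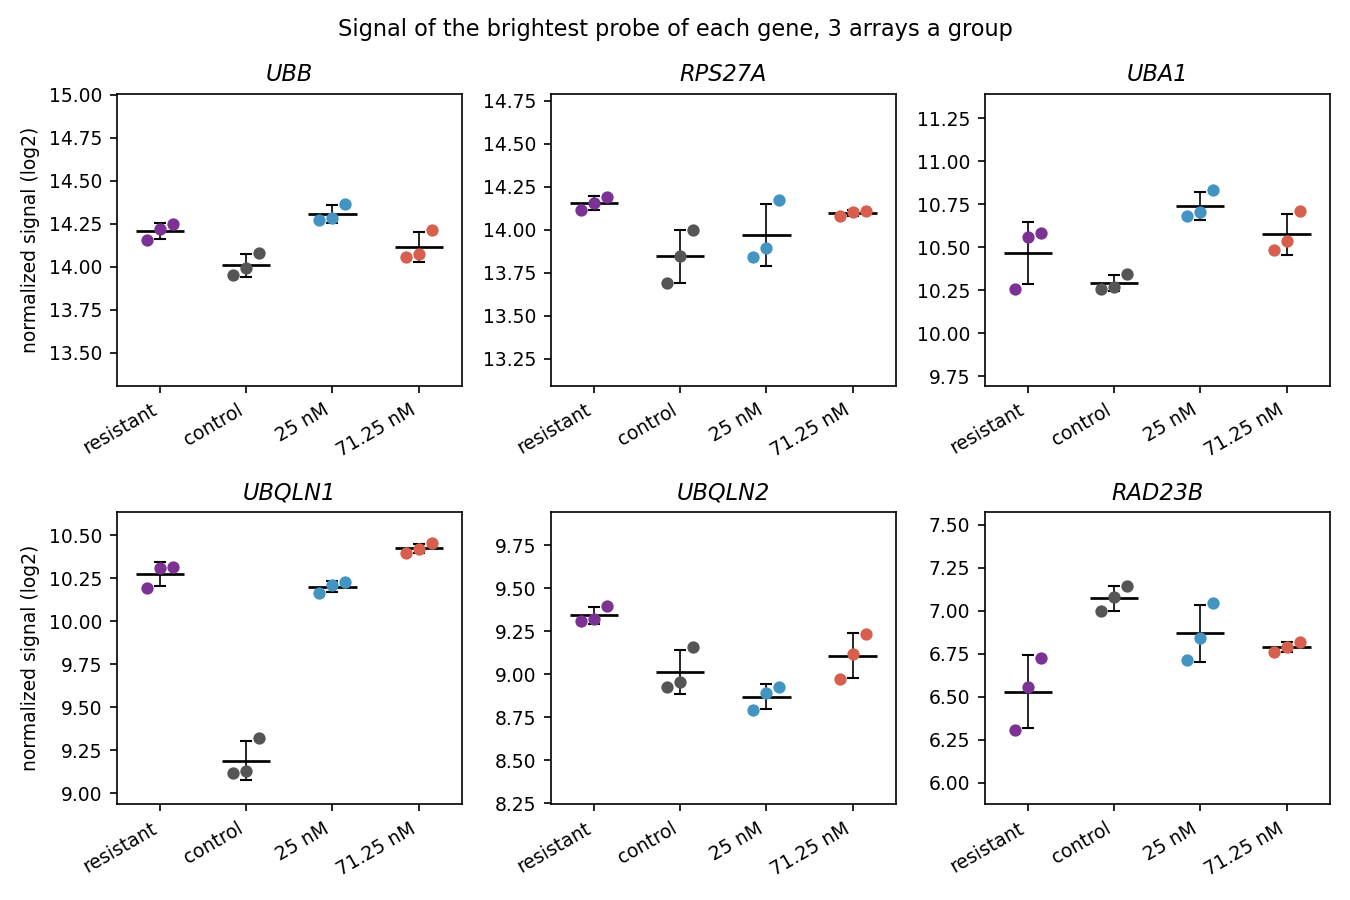
Normalized log2 signal (y axis, equal span of 1.7 log2 units in each panel) of the brightest probe of each gene in the 4 groups (x axis). Points are arrays, long bars are means and short bars are the SD of 3 arrays. The control arrays of UBQLN1 lie at 9.12 to 9.32, below all 9 other arrays, while the groups of the other 5 genes lie closer together.

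UBQLN1 (ubiquilin 1), which escorts ubiquitin-tagged and membrane proteins to the proteasome, rose in each of the 3 groups against control. Its brightest probe, ILMN_2351611, read 10.31, 10.32 and 10.19 in the resistant arrays and 9.13, 9.32 and 9.12 in the control arrays. It read 10.23, 10.21 and 10.16 at 25 nM, and 10.42, 10.40 and 10.45 at 71.25 nM. All 9 arrays of the 3 groups were above all 3 control arrays, and the resistant arrays lay between the control and the 71.25 nM arrays without overlap with either. The difference from control was 1.01 ± 0.10 (SE, adjusted p = 6.11e-06) at 25 nM. At 71.25 nM it was 1.24 ± 0.10 (SE, adjusted p = 3.86e-07), and in resistant cells 1.09 ± 0.10 (SE, adjusted p = 6.18e-07). These 3 calls held in 26 of 26 alternative settings. The 71.25 nM arrays were all above the 25 nM arrays, with a difference of 0.22 (95% interval 0.02 to 0.43, adjusted p = 0.195) that did not pass the test and passed in 3 of the 26.

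UBQLN1 has 2 further probes on the array, and both rose in the 3 groups against control. The second brightest, ILMN_1688622, averaged 9.89 in resistant cells and 8.94 in control cells, with 9.35 at 25 nM and 9.58 at 71.25 nM. Its differences from control were 0.41 at 25 nM (adjusted p = 0.00923), 0.63 at 71.25 nM (adjusted p = 0.000244) and 0.95 in resistant cells (adjusted p = 4.41e-06). On this probe the resistant arrays were the highest, by 0.31 over 71.25 nM (adjusted p = 0.0433) and by 0.54 over 25 nM (adjusted p = 0.00128). The brightest probe gave -0.15 (adjusted p = 0.303) and 0.07 (adjusted p = 0.629) for these comparisons, so the order of resistant cells and the 2 doses depends on the probe. The third probe, ILMN_1798380, gave 1.14 at 25 nM, 1.28 at 71.25 nM and 1.07 in the resistant cells, each against control. The files used here do not tie these probes to transcript variants.

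UBQLN2 (ubiquilin 2), a paralog with the same ubiquitin-binding and ubiquitin-like domains and a proline-rich stretch mutated in a familial form of amyotrophic lateral sclerosis, moved differently. Probe ILMN_1680770 read 9.31, 9.40 and 9.32 in the resistant arrays and 8.93, 9.16 and 8.95 in the control arrays. It read 8.79, 8.89 and 8.93 at 25 nM, and 8.97, 9.23 and 9.12 at 71.25 nM. The resistant arrays were above all other arrays, and the control arrays overlapped those of both doses. The difference from control was -0.14 at 25 nM (95% interval -0.37 to 0.08, adjusted p = 0.364) and 0.09 at 71.25 nM (95% interval -0.13 to 0.32, adjusted p = 0.532). In resistant cells it was 0.33 ± 0.11 (SE, adjusted p = 0.0197), or 1.26-fold. That call was lost with scaling to the array median (0.12, adjusted p = 0.402) or to housekeeping genes (0.24, adjusted p = 0.123). It was also lost without array 1 (adjusted p = 0.0748) or array 3 (0.0564) of the controls or array 11 (0.0637) of the resistant cells. Before normalization the mean signal was 607.8 in resistant cells and 650.4 in control cells. Resistant cells were above 25 nM cells by 0.47 ± 0.11 (SE, adjusted p = 0.00394). This difference was 0.30 with scaling to the array median (adjusted p = 0.0427), and the call was lost with scaling to housekeeping genes (0.34, adjusted p = 0.0537).

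The difference between the paralogs was then taken within each array, UBQLN2 minus UBQLN1. Its size depends on the affinities of both probes, and only its change between groups can be read. It was -1.001, -0.92 and -0.88 in the resistant arrays and -0.20, -0.16 and -0.16 in the control arrays. At 25 nM it was -1.44, -1.32 and -1.24, and at 71.25 nM -1.45, -1.17 and -1.34. The control and resistant arrays each stood apart from all others, while the arrays of the 2 doses overlapped. The group means were -0.93 ± 0.06 in resistant cells, -0.18 ± 0.03 in control cells, -1.33 ± 0.10 at 25 nM and -1.32 ± 0.14 at 71.25 nM (SD, n = 3 each). An exact permutation test over all 369600 assignments of arrays to groups gave p = 0.000649, or 0.0013 adjusted over the 2 gene pairs tested. With the second UBQLN1 probe the adjusted p was 0.0269 in the same exact test, and the difference averaged -0.55 in resistant cells and 0.07 in control cells, with -0.48 at 25 nM and -0.47 at 71.25 nM. On that probe the control arrays stood apart from all others, and the resistant arrays overlapped those of both doses. With the third probe the adjusted p was 0.000909, and the means were -0.16 in resistant cells and 0.59 in control cells, with -0.69 at 25 nM and -0.60 at 71.25 nM.

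The promoters of the ubiquilin pair are shown because the difference between their levels changed between groups. Each window runs from 250 bases before to 50 after the annotated start in RefSeq (GRCh38.p14), 5′ to 3′ on the gene's strand. It lies at chr9:83707909-83708208 (minus strand) for UBQLN1 and at chrX:56563377-56563676 (plus strand) for UBQLN2. Capitals mark matches to TGANNNNGC, the core of the antioxidant response element, on either strand.
UBQLN1: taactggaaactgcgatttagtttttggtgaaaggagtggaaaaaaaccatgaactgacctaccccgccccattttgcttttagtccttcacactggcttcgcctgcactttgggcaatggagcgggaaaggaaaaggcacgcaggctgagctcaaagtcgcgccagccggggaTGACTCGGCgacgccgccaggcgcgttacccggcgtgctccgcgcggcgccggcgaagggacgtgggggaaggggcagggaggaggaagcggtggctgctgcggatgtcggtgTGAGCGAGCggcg
UBQLN2: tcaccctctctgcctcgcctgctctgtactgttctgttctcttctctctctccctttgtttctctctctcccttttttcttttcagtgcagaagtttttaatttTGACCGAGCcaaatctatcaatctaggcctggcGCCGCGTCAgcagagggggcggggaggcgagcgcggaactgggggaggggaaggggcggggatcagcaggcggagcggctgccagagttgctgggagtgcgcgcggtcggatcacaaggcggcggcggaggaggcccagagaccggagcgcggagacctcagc
Both windows hold 2 such matches, starting 76 bases before and 37 after the start in UBQLN1, and 146 and 113 bases before it in UBQLN2. RefSeq gives 12 windows for the 6 genes, and 6 of the 12 hold a match, which 41.8% of 35116 promoter windows of the same length do. GAANNTTC and TTCNNGAA, the paired units of the heat shock element, were searched on both strands. Of the 12 windows 0 hold either, while 13.5% of all windows do. The 2 windows of UBB overlap and hold the same match, and 2 windows of RPS27A overlap. The 12 are therefore not separate promoters, and neither count can be compared with its percentage. A match is a description of the letters in a window and says nothing about binding.

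**Figure D2:**
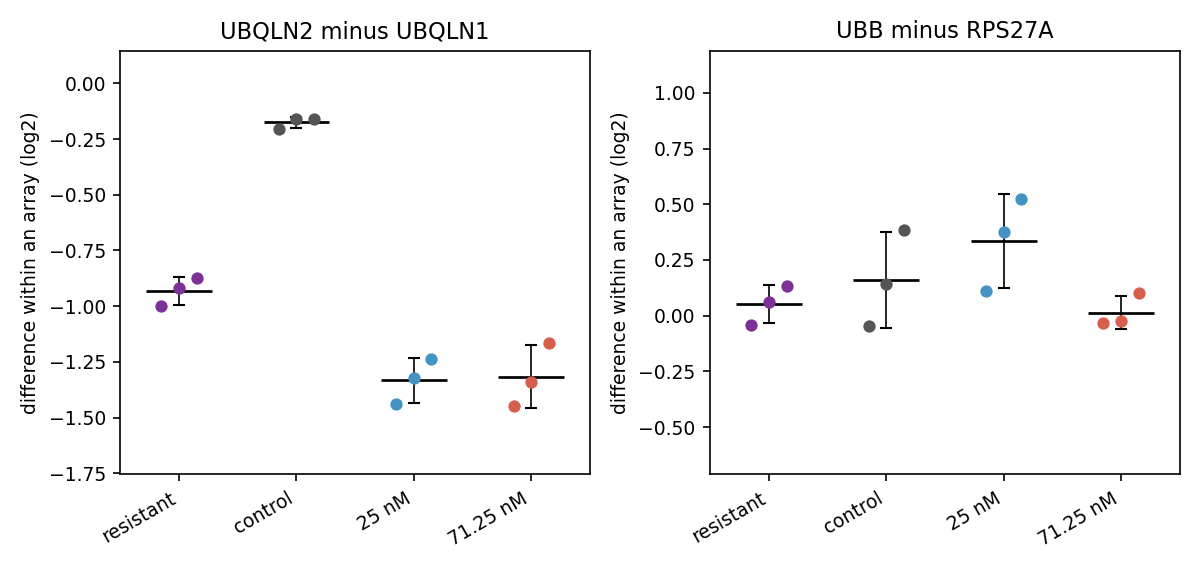
Difference between the brightest probes of 2 genes within each array (y axis, log2) in the 4 groups (x axis); points are arrays, long bars means and short bars the SD of 3 arrays. UBQLN2 minus UBQLN1 (left) is -0.20 to -0.16 in control arrays and -0.88 or lower in the others. UBB minus RPS27A (right) overlaps between groups, except that all 25 nM arrays (0.109 or higher) lie above all 71.25 nM arrays (0.1 or lower).

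RAD23B, which pairs a ubiquitin-like domain with ubiquitin-binding domains and also forms part of the XPC complex that finds DNA damage, fell in resistant cells. Probe ILMN_1722662 read 6.73, 6.31 and 6.56 in the resistant arrays and 7.08, 6.998 and 7.15 in the control arrays. It read 7.05, 6.85 and 6.72 at 25 nM, and 6.79, 6.76 and 6.82 at 71.25 nM. The resistant and control arrays did not overlap, nor did those of 71.25 nM and control, while a single 25 nM array lay within the control range. The difference from control was -0.54 ± 0.12 in resistant cells (SE, adjusted p = 0.00224), a 1.46-fold fall. This difference was called in 26 of 26 alternative settings, of which 2 changed only the probes of other genes. It was smaller, at -0.31, both without background correction and on the authors' values. At 25 nM it was -0.21 ± 0.12 (SE, adjusted p = 0.253) and at 71.25 nM -0.28 ± 0.12 (SE, adjusted p = 0.0857). The deposited signals were 148 to 171 in resistant cells and 206 to 239 in control cells. Between resistant and 25 nM cells the difference was -0.34 (adjusted p = 0.0528), which passed in 9 of the 26, and between resistant and 71.25 nM cells -0.26 (adjusted p = 0.157).

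Of 3 partners of RAD23B, 2 rose at 25 nM and in resistant cells and 3 at 71.25 nM. The share of all genes called higher against control was 13.3% with the lower dose, 19.4% with the higher dose and 23.0% for resistant cells. A count over 3 genes is not read as a property of the partners. NGLY1, the cytosolic enzyme that strips N-glycans from misfolded proteins, rose by 0.59 at 25 nM, 0.63 at 71.25 nM and 0.92 in the resistant cells (adjusted p = 0.00348, 0.00128 and 3.59e-05). CETN2, the centrin of the XPC complex, rose by 0.35, 0.50 and 0.69 in the same order. XPC itself rose by 0.66 at 71.25 nM (adjusted p = 8.76e-05), with differences of 0.19 at 25 nM and 0.19 in resistant cells that did not pass.

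UBA1, which activates ubiquitin at the head of most conjugation in the cell, rose at 25 nM. Probe ILMN_3297945 read 10.58, 10.56 and 10.26 in the resistant arrays and 10.34, 10.27 and 10.26 in the control arrays. It read 10.70, 10.68 and 10.83 at 25 nM, and 10.71, 10.48 and 10.53 at 71.25 nM. The arrays of both doses were above all control arrays, and the resistant arrays overlapped the controls. The difference from control was 0.45 ± 0.11 at 25 nM (SE, adjusted p = 0.00952), or 1.36-fold. It was called in 26 of 26 alternative settings, of which 2 changed only the probes of other genes. At 71.25 nM it was 0.29 ± 0.11 (SE, adjusted p = 0.0611), which passed in 9 of the 26. In resistant cells it was 0.18 (95% interval -0.07 to 0.42, adjusted p = 0.229), and -0.05 with scaling to the array median. Resistant cells were below 25 nM cells by 0.27 (adjusted p = 0.0887), which passed in 7 of the 26. The table also holds 2 probes under UBE1, an older symbol of UBA1 in RefSeq's gene table, which the choice by symbol left out. The brighter of them, ILMN_1683609, gave 0.26 at 25 nM (adjusted p = 0.129), 0.18 at 71.25 nM (0.261) and 0.03 in resistant cells (0.869). The dim one, ILMN_1720764, was detected on 0 of 3 resistant and 2 of 3 control arrays. Its means were 4.53 in resistant cells and 5.06 in control cells, at least 1.17-fold higher in control (adjusted p = 0.0283), and it gave -0.09 at 25 nM (0.774) and -0.21 at 71.25 nM (0.411).

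UBB, a polyubiquitin gene, gave opposite signs on its 2 probes. Probe ILMN_1762436, the brighter by its mean over arrays, read 14.16, 14.22 and 14.25 in the resistant arrays and 13.99, 14.08 and 13.95 in the control arrays. It read 14.27, 14.36 and 14.28 at 25 nM, and 14.07, 14.21 and 14.05 at 71.25 nM. The 25 nM arrays were above all others. The difference from control was 0.30 ± 0.09 at 25 nM (SE, adjusted p = 0.0297), 0.11 at 71.25 nM (0.408) and 0.20 in resistant cells (0.0965). The difference in resistant cells passed in 7 of the 26 alternatives and was 0.57 with cyclic loess (adjusted p = 0.000262) and 0.38 with scaling to housekeeping genes (0.0164). Probe ILMN_2191428 read 14.14, 14.11 and 14.04 in the resistant arrays and 14.24, 14.39 and 14.21 in the control arrays. It read 14.01, 14.08 and 14.11 at 25 nM, and 13.99, 14.04 and 14.03 at 71.25 nM, so that the control arrays were above all others. Its differences from control were -0.22 at 25 nM (adjusted p = 0.101), -0.26 at 71.25 nM (0.0398) and -0.19 in resistant cells (0.115). Both probes read between 69.6% and 95.4% of the brightest signal on their array, and whether this limits their range was not tested. The call at 25 nM was lost with the mean of the probes (0.04, adjusted p = 0.764), with scaling to the array median (0.18) or housekeeping genes (0.27), with only the compared groups in the fit (adjusted p = 0.065), and without control array 1 (adjusted p = 0.0776) or 3 (0.0794), or any of the 25 nM arrays 4 (0.0585), 5 (0.101) and 6 (0.0635). No direction for UBB is therefore given.

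RPS27A encodes ubiquitin joined to a protein of the small ribosomal subunit. Probe ILMN_2048326 read 14.19, 14.16 and 14.11 in the resistant arrays and 13.85, 13.69 and 13.997 in the control arrays. It read 13.89, 13.84 and 14.18 at 25 nM, and 14.11, 14.11 and 14.08 at 71.25 nM. The resistant and the 71.25 nM arrays were above all control arrays, and those of 25 nM overlapped every other group. The difference from control was 0.12 at 25 nM (adjusted p = 0.476), 0.25 at 71.25 nM (0.0959) and 0.31 ± 0.11 in resistant cells (SE, 0.0375). With cyclic loess the difference in resistant cells was 0.60 (adjusted p = 0.00172), and that at 71.25 nM passed in 6 of the 26 alternatives. The call in resistant cells did not hold on the second probe, ILMN_1755883, which averaged 13.35 in resistant cells and 13.34 in control cells (difference 0.01, adjusted p = 0.973). It was also lost with scaling to the array median (0.29, adjusted p = 0.124), with the mean of the probes (0.16, adjusted p = 0.166), with only the compared groups in the fit (adjusted p = 0.0618), and without control array 1 (adjusted p = 0.0782) or 2 (0.143) or resistant array 10 (0.0955), 11 (0.079) or 12 (0.0599). UBB minus RPS27A within an array averaged 0.05 ± 0.09 in resistant cells, 0.16 ± 0.22 in control cells, 0.34 ± 0.21 at 25 nM and 0.01 ± 0.07 at 71.25 nM (SD, n = 3 each). The exact permutation test over the 4 groups gave p = 0.138, also after adjustment, and 0.0443 without array 6.

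**Figure D3:**
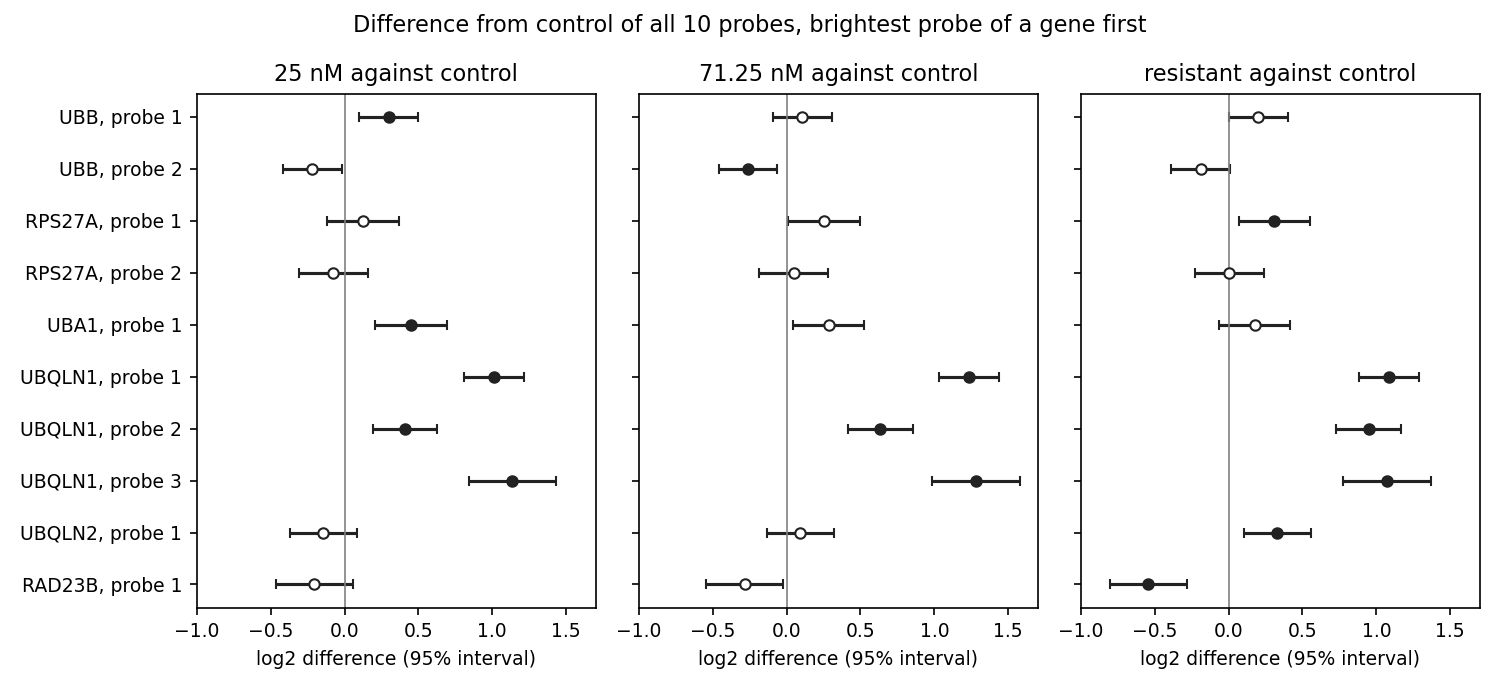
Log2 difference from control (x axis) of each of the 10 probes (y axis) for the 2 doses and the resistant cells, with 95% intervals from limma; filled points are called. All 3 UBQLN1 probes lie to the right of 0 in each panel, between 0.41 and 1.28, while the 2 UBB probes lie on opposite sides of 0.

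**Figure D4:**
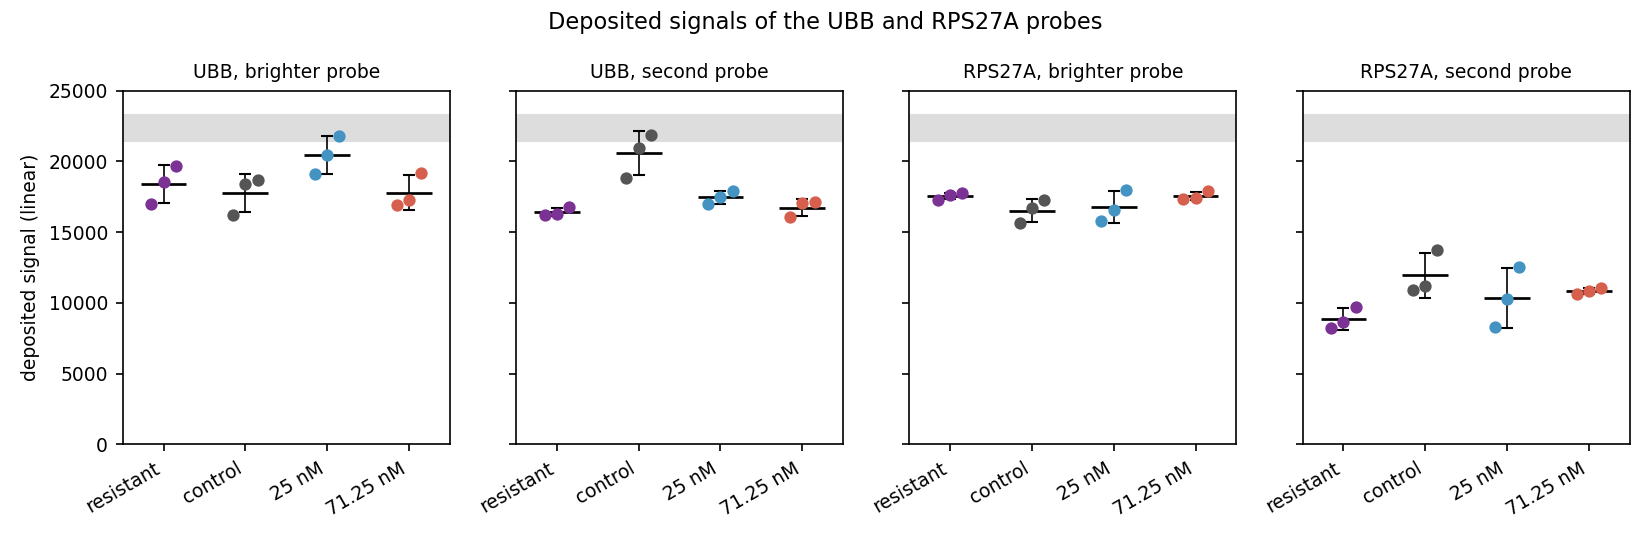
Deposited signals before normalization (y axis, linear) of both probes of UBB and RPS27A in the 4 groups (x axis); points are arrays, long bars means and short bars the SD of 3 arrays. The grey band spans the brightest signal of each array, 21461 to 23242. The UBB signals lie at 69.6% to 95.4% of their array's brightest signal in all 4 groups, and the second RPS27A probe lies lower, with means of 8849 in resistant cells and 11930 in control cells.

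The rest of the pathway was described by lists, without a test of a list as a whole. Over all genes 27.0% were called at 25 nM (13.3% higher), 39.0% at 71.25 nM (19.4% higher) and 47.1% in resistant cells (23.0% higher, 24.1% lower). These shares stand beside the list counts below. Of 13 other shuttle factors and ubiquitin receptors, 7 rose and 0 fell at 25 nM, 8 rose and 1 fell at 71.25 nM, and 7 rose and 1 fell in resistant cells. Their median differences were 0.36, 0.56 and 0.52, beside -0.002, -0.006 and -0.02 over all genes. ZFAND2A, a zinc finger protein that associates with the proteasome under stress, rose by 1.81, 2.82 and 2.99 (adjusted p = 1.24e-07, 5.23e-10 and 1.18e-10). SQSTM1 (p62), the receptor that takes ubiquitin-tagged cargo to autophagy, rose by 1.65, 1.69 and 1.83. ZFAND5, which stimulates the proteasome, rose by 1.40, 1.59 and 1.35, and PSMD2, the base subunit that docks shuttle factors, by 1.46, 1.32 and 1.22. The ubiquilin UBQLN4 differed by -0.15 and -0.27 at the 2 doses without a call and fell by 0.39 in resistant cells (adjusted p = 0.012).

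Among proteasome subunits, to which the shuttle factors deliver, 24 of 31 rose and 1 fell at 25 nM, 26 rose and 1 fell at 71.25 nM, and 27 rose and 1 fell in resistant cells. Their median differences were 0.76, 0.70 and 0.72. The lists overlap: PSMD2 was counted here and among the shuttle factors and receptors, and PSMD14 here and among the deubiquitinases. PSMC4, an ATPase of the base, rose by 1.41 at 25 nM and 1.34 at 71.25 nM, and PSMD6, a lid subunit, by 1.08, 1.09 and 1.14 in the 3 groups. PSMD8, another lid subunit, rose by 1.31 in resistant cells (adjusted p = 4.62e-05). Of 16 heat shock genes 12, 14 and 16 rose and 0 fell, with medians of 0.76, 1.24 and 0.97. The inducible chaperones HSPA6 and HSPA1B rose by 3.25 and 2.74 at 25 nM. At 71.25 nM they rose by 5.64 and 3.99, and in resistant cells by 6.64 and 4.04. HSPA1A, a near-identical copy of HSPA1B whose probe may share its RNA, was detected on 0 of 3 control arrays. It passed the filter of detected arrays only through the 3 groups where it was higher, so no p-value is given for it. Its calls are counted in the 12, 14 and 16 above. It was at least 3.88-fold higher at 25 nM and at least 11.1-fold higher at 71.25 nM than the dimmest signals detected in control allow. In resistant cells its bound was only at least 1.51-fold, with a mean of 5.48 in resistant cells and 4.63 in control cells. Their co-chaperone DNAJB1 rose by 3.25 in resistant cells. UBQLN1 moved in the same direction as most of these genes, which share its arrays.

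RPS27A was set beside 75 measured genes of cytosolic ribosomal proteins. Of these 0 rose and 16 fell at 25 nM, 0 rose and 13 fell at 71.25 nM, and 2 rose and 24 fell in resistant cells, with medians of -0.09, -0.03 and -0.12. Over all genes 27.0%, 39.0% and 47.1% were called in these comparisons, with 13.3%, 19.4% and 23.0% called higher. In resistant cells 24.1% of all genes were called lower. Both RPL36A and RPL29 fell in the 3 groups, with differences of -1.80, -2.27 and -2.28 for RPL36A and -1.31, -1.63 and -1.47 for RPL29. RPL34 differed by -0.80 at 25 nM (adjusted p = 0.000153), RPL15 by -0.90 at 71.25 nM (1.63e-05) and RPS21 by -1.49 in resistant cells (2.96e-07). Ribosomal protein genes have many near-identical pseudogenes, so their probes are uncertain. RPS27A was called higher in resistant cells on 1 of its 2 probes, as given above.

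**Figure D5:**
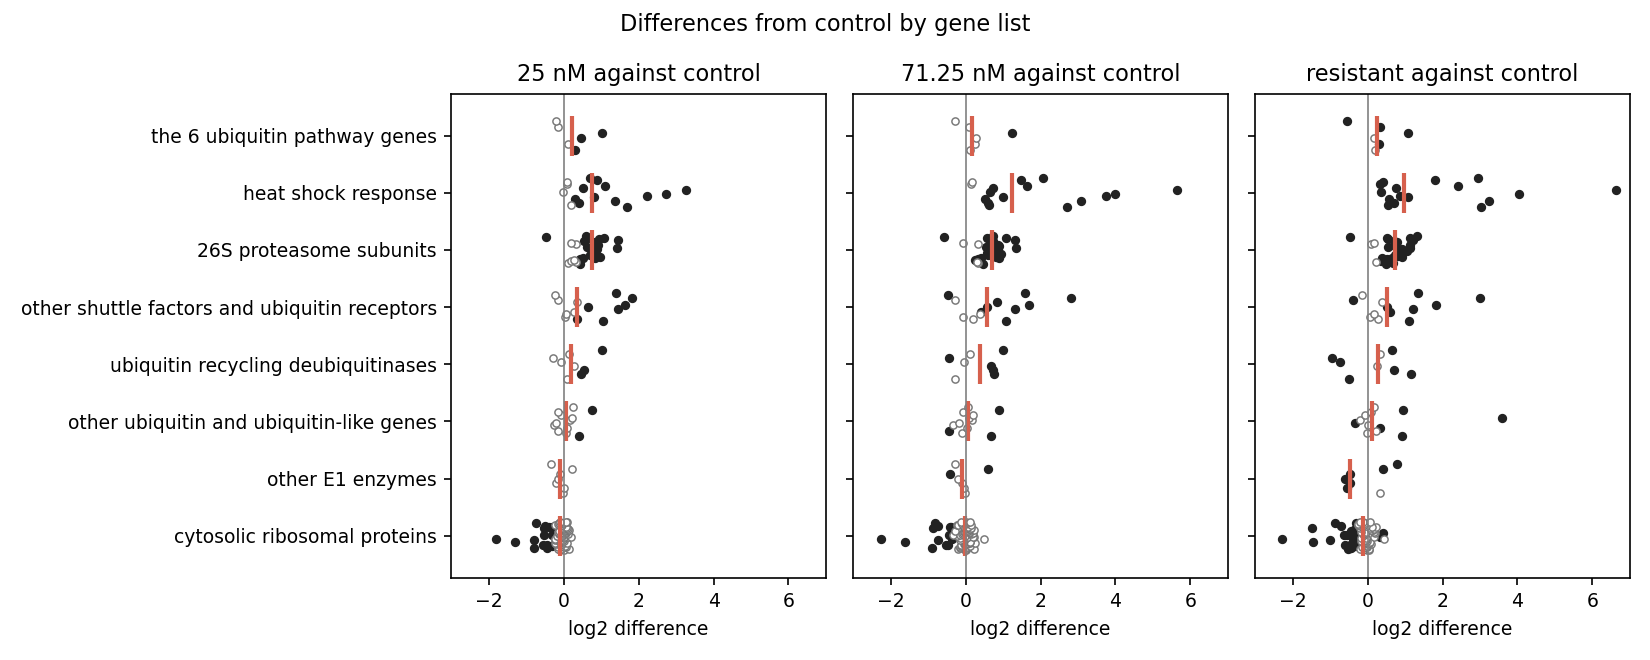
Log2 difference from control (x axis) of each measured gene by list (y axis) for the 2 doses and the resistant cells; filled points are called, open points are not, and red bars are list medians. Heat shock genes and proteasome subunits lie mostly right of 0 in each panel, and among the 6 genes (top row) UBQLN1 is the point farthest right, at 1.01 to 1.24.

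Over the 12 arrays the level of UBQLN1 ran most like that of ALKBH5, an RNA demethylase (Pearson r = 0.994), SLC7A11, the cystine transporter (0.992), and PSMB5, the proteasome subunit that ixazomib binds (0.991). SLC7A11 averaged 8.54 in resistant cells and 6.37 in control cells, with 8.33 at 25 nM and 8.64 at 71.25 nM. PSMB5 averaged 12.18 in resistant cells and 11.34 in control cells, with 12.21 at 25 nM and 12.27 at 71.25 nM. The closest genes were PRR5 (0.927), ACADVL (0.909) and APBA2BP (0.904) for UBB, and FBRS (0.945), G6PC3 (0.933) and LOC100134407 (0.923) for UBA1. They were TMEM9 (0.926), ACVR1 (0.916) and ELK3 (0.911) for UBQLN2, ILVBL (0.951), LOC286444 (0.939) and FASTKD1 (0.933) for RAD23B, and LOC653583 (0.919), LOC100132761 (0.913) and CLUAP1 (0.908) for RPS27A. Among the 6 genes, UBQLN1 correlated at 0.66 with UBA1, 0.62 with UBB, 0.62 with RPS27A, 0.28 with UBQLN2 and -0.65 with RAD23B. These are descriptions over arrays that share 4 group means, and they carry no test.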

How the data were processed

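RNA of the 12 samples was read on Illumina HT-12 arrays. The members and lists were chosen with earlier results of these data known. The deposited signals are linear intensity values per probe, neither background corrected nor normalized, with a detection p-value in 770 steps, as the values show. The authors' processed table holds intensity values, corrected through housekeeping genes and quantile normalized, per the labels' series text. Its column medians were 104.1, 104.3 and 104.4 in resistant cells, 104.4, 104.6 and 104 in control, 104, 104.3 and 104.8 at 25 nM, and 104.3, 103.9 and 104.3 at 71.25 nM. The scale is linear with no centring seen, it has 1 colour and so no direction, and the housekeeping genes used are unknown. Each column ranked closest to an array of its own group (rank r 0.99974 to 0.99999). Arrays carry a group and a number, not tied to the labels' replicate numbers, and groups come from sample titles. No source used here names the scanner software.

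Signals were normexp corrected (limma 3.58.1, R 4.3.3, background inferred from detection p, offset 16), quantile normalized and taken to log2. Probes detected (p under 0.05) on at least 3 of 12 arrays were kept: 20414 probes, 14953 genes, each by its brightest probe. One limma model of all 12 arrays gave each group its mean (8 residual and 5.5 prior degrees of freedom), with two-sided tests adjusted by Benjamini-Hochberg over kept probes. Named genes were the 6 members, up to 3 called genes with the largest difference per list and comparison against control, and 3 genes closest to each member by Pearson correlation; UBQLN4, XPC and UBE1 probes were named outside this rule, after their values were seen. Some genes of the lists are not reported here and were left out of list counts. Steps were tested on simulated data. Genome build: promoters are from RefSeq GRCh38.p14. Plots used matplotlib 3.10.9.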

Additional observations from a re-analysis of the deposited data

How the results depend on the processing

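The calls of UBQLN1 against control, of UBA1 at 25 nM and of RAD23B in resistant cells held in 26 of 26 alternatives, 2 of them chosen after seeing the data. Those 2 changed only probes of other genes for UBA1 and RAD23B, which have 1 probe each, and could not end their calls. The brighter UBE1 probe, not among the 26, gave 0.26 at 25 nM (adjusted p = 0.129 in limma's model). Arrays or settings that ended a call of UBQLN2, UBB or RPS27A stand beside those results. Leaving out each array in turn gave 3 to 4 members differing across the groups (4 with all arrays), 2 to 3 called at 25 nM, 1 to 2 at 71.25 nM and 2 to 4 in resistant cells against control, 0 between doses, 0 in resistant cells against 71.25 nM and 1 to 2 against 25 nM. It gave p-values of the exact test, adjusted over the 2 pairs, of 0.000519 to 0.0026 for UBQLN2 minus UBQLN1 and 0.0443 to 0.35 for UBB minus RPS27A, with 0.0443 without array 6. Against control at 71.25 nM, 3 members were called with no background correction, offset 50, a trend and robust prior or the authors' values, and 2 with housekeeping scaling, detection on all 12 arrays, the mean of the kept probes or the second probes. In resistant cells against control 2 were called with median scaling, and 5 with cyclic loess, no background correction, offset 50, the trend and robust prior or the authors' values. Under those last 5 settings 6 members differed across the groups, 5 with detection on all 12 arrays or no filter on dim probes, and 3 with median or housekeeping scaling. In resistant cells against 25 nM, 3 were called with median scaling, no background correction, offset 50 or the authors' values, and 2 with cyclic loess, detection on all 12 arrays, the trend and robust prior, the mean of the probes or the second probes. No background correction and the authors' values each called 1 between doses, and they, cyclic loess and the second probes 1 in resistant cells against 71.25 nM. On second probes UBB gave -0.22 at 25 nM and -0.26 at 71.25 nM, and UBQLN1 gave 0.31 in resistant cells against 71.25 nM. The number of all genes called also changed with the setting, so these member counts are not read as a property of the members. At 71.25 nM against control it was 5838 in the main fit and 6230 to 6267 under the settings that called 3 members. In resistant cells against control it was 7047, with 7176 under median scaling and 6978 under cyclic loess. Between doses it was 876, with 1774 without background correction and 371 to 953 when leaving out an array. The cause of these changes was not tested.

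With the replicate number as a block the authors' values called 3, 1, 1 and 3 members at 71.25 nM against control, between doses, and in resistant cells against 71.25 nM and 25 nM, the same as without the block. The numbers do not pair the samples: correlations of deviations ran from -0.286 to 0.161, over 0.1 in 2 of 18 pairs, and 3 of 12 samples correlated best with their own number. The methods' one-way test gave adjusted p under 0.05 for 5 of 6 members, all but RPS27A (0.0986). The share of all genes passing that test was not counted, so the 5 are not read as a result about the members. By limma's F test 52.7% of all genes differed across the 4 groups.

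Scaling to 14 housekeeping genes, of which 4 rose and 4 fell in resistant cells, moved the median difference of all genes from control to 0.06 at 25 nM, 0.13 at 71.25 nM and 0.12 in the resistant cells. Higher calls were then 59.5%, 64.4% and 56.7% of calls, beside 49.4%, 49.7% and 48.8%; between doses 69.4% beside 50.8%, and in resistant cells against 71.25 nM 39.7% beside 52.4%. Relative to that shift UBQLN1 differed by 0.98, 1.17 and 0.89, UBA1 by 0.40 at 25 nM and RAD23B by -0.56 in resistant cells. Scaling to the array median gives the same relative values by construction, so they are not a separate check. UBB read at 69.6% to 95.4% of each array's brightest signal and RAD23B at deposited signals of 148 to 239; whether this limits either was not tested.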

Other observations

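UBD (FAT10), a ubiquitin-like tag induced by inflammatory cytokines, was detected on 3 of 3 resistant arrays, with signals of 314, 300.01 and 367, and on 1 of 3 control arrays, with signals of 98.3, 114 and 103. UBD reached the filter of 3 detected arrays only through the resistant arrays, where it was high, so no p-value is given for it. In resistant cells it was at least 9.93-fold higher than in control cells. It was at least 9.29-fold higher than at 25 nM, where it was detected on 1 of 3 arrays. Against 71.25 nM, where it was detected on 0 of 3 arrays, it was at least 10.1-fold higher. For these bounds each array of the dim group took UBD's own signal or, if higher, the dimmest detected one. UFM1, a ubiquitin-like tag of the endoplasmic reticulum, rose by 0.75 at 25 nM, 0.88 at 71.25 nM and 0.93 in the resistant cells, and ATG12, the tag of autophagosome formation, by 0.41, 0.67 and 0.91. ISG15, an interferon-induced tag, fell by 0.44 at 71.25 nM (adjusted p = 0.00787). Of 12 ubiquitin-like genes 2 rose and 0 fell, 2 rose and 1 fell, and 4 rose and 1 fell in these comparisons. The 4 include UBD, which passed the filter only through the resistant arrays. The count in resistant cells is therefore not to be compared with the share of all genes. Over all genes 27.0%, 39.0% and 47.1% were called in the same order, with 13.3%, 19.4% and 23.0% called higher.

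Among 7 measured E1 enzymes other than UBA1, limma called 0 at 25 nM, where 2 had an unadjusted p under 0.05, while 1 rose and 1 fell at 71.25 nM, and 2 rose and 4 fell in resistant cells. UBA6, the second E1 for ubiquitin, rose by 0.61 at 71.25 nM (adjusted p = 0.00142) and 0.40 in resistant cells (adjusted p = 0.016). UBA2 of the SUMO pathway and NAE1 of the NEDD8 pathway fell by 0.62 and 0.54 in resistant cells, and UBA7, the E1 of ISG15, rose by 0.78 there (adjusted p = 0.000377) and was detected on 9 of 12 arrays, including 3 resistant and 3 control arrays. UBA3 fell by 0.41 at 71.25 nM. Of 8 measured deubiquitinases that recycle ubiquitin 3 rose and 0 fell, 4 rose and 1 fell, and 3 rose and 3 fell. Beside the E1 and deubiquitinase counts, 27.0%, 39.0% and 47.1% of all genes were called, with 13.3%, 19.4% and 23.0% called higher. In resistant cells 24.1% of all genes were called lower. USP5, which cleaves free chains, rose by 1.01 at 25 nM and 0.99 at 71.25 nM, PSMD14 of the proteasome lid by 0.55 and 0.72, and FAM105B (OTULIN) by 0.47, 0.76 and, in resistant cells, 1.15. USP13 and UCHL5 fell by 0.96 and 0.74 in resistant cells.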
